A study of Mus musculus with 61 samples.

Results

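The transcription factors described here act in excitatory neurons of the hippocampus and of the rest of the pallium. There are 7 of them: Neurod1, Neurod2, Neurod6, Tbr1, Bhlhe22, Mef2c and Bcl11b. They were followed on all 61 arrays through every probe set that the platform annotation gave to exactly 1 of these genes. That rule found 16 probe sets of 6 genes, of 45037 probe sets and 18193 genes in the whole series. Neurod1 had 2 probe sets, Neurod2 had 3, Neurod6 and Tbr1 had 1 each, Mef2c had 5 and Bcl11b had 4. No such probe set named Bhlhe22, a basic helix-loop-helix repressor, and its expression was not analysed here. All 16 probe sets were above the floor of detection on at least 1 array.

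The study profiled 5 dissected regions of adult male mice from 6 inbred strains to compare gene expression between strains and regions. The regions were the hippocampus, the hypothalamus, the pituitary gland, the periaqueductal gray (pag) and the bnst, the bed nucleus of the stria terminalis. The strains were 129S6/SvEvTac, bought from Taconic, and FVB/NJ, DBA/2J, A/J, C57BL/6J and C3H/HeJ, bought from Jackson, so that supplier and strain cannot be told apart for 129S6/SvEvTac. Every mouse was wild type, untreated and 8 weeks old, each array carried tissue of 1 to 5 mice (pituitary glands were pooled from 5, hippocampus came from 1), and replicate arrays came from different animals. Each strain and region had 2 arrays, except the C3H/HeJ bnst with 3. According to the paper, hippocampi were frozen at once on dry ice, and the smaller structures were put in RNA Later buffer. Preservation and region therefore cannot be told apart where the hippocampus is compared with the other regions.

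NEUROD1, NEUROD2 and NEUROD6 are basic helix-loop-helix (bHLH) proteins that bind E-box DNA as dimers with E proteins and drive the differentiation and maturation of excitatory neurons. TBR1 is a T-box factor of glutamatergic cortical neurons, MEF2C is a MADS-box factor that couples neuronal activity to synapse number, and BCL11B, also called CTIP2, is a zinc finger factor of hippocampal, deep-layer cortical and striatal projection neurons. Neurod1 is also used outside the brain, in pancreatic islets and in the corticotroph lineage of the pituitary, and in cerebellar granule cells.

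The 250 bases before the start of the NeuroD genes are shown because all of these paralogs had their highest signals in the hippocampus and because their proteins bind E-boxes. The sequences are RefSeq entries on GRCm38.p6, written 5′ to 3′ on the strand of the gene, with every E-box of the form CANNTG, which reads the same on both strands, in capitals. They lie at chr2:79456637-79456886 for Neurod1, chr11:98329646-98329895 for Neurod2 and chr6:55681264-55681513 for Neurod6, all on the minus strand.
Neurod1: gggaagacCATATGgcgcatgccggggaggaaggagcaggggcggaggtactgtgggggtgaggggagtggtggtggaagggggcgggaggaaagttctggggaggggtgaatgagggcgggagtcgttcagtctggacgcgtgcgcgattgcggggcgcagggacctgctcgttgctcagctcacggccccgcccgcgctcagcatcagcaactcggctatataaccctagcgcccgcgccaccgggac
Neurod2: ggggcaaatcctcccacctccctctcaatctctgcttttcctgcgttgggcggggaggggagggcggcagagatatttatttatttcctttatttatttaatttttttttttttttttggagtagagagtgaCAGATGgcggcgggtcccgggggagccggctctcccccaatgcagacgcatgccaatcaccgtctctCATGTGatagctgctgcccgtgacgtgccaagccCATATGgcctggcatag
Neurod6: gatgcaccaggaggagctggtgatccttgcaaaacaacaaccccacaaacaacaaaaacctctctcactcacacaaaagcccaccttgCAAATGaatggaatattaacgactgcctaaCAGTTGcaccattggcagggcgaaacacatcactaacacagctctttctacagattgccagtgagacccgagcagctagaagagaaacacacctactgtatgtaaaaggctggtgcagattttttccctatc

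Neurod2 held 3 E-boxes in this window, Neurod6 held 2 and Neurod1 held 1. A CANNTG was present in 66.2% of 32851 promoter windows of the same length. The form CATATG, which is 1 of the CANNTG forms, stood in the Neurod1 and Neurod2 windows and in 3.46% of all windows. The form CAGATG, searched on both strands, stood in the Neurod2 window and in 14.4% of all. Among the other factors, the Tbr1 window held 1 E-box and the Bcl11b window held 0. Mef2c had 3 start windows, which held 2, 0 and 1 E-boxes, with a CATATG in the first and a CAGATG in the last. No measurement of binding was available for these windows.

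The hippocampus had the highest signal of all 6 measured factors. Signals are background-corrected linear array intensities, and a level cannot be set against that of another probe set, so each factor is compared only with itself. Each gene was represented by its probe set with the highest mean signal. Neurod2 had signals from 965 to 1541 on the 12 hippocampal arrays (median 1087), against 3.82 to 121 on the 49 arrays of the other regions. Neurod6 ranged from 569 to 948 in the hippocampus (median 765) and reached at most 23.4 elsewhere. The lowest hippocampal array of each of these factors was thus far above every other array.

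Bcl11b ranged from 813 to 1085 in the hippocampus (median 955) and reached 365 elsewhere, on a DBA/2J bnst array. Mef2c ranged from 862 to 1194 in the hippocampus (median 1021) and reached 579 elsewhere, on a C3H/HeJ bnst array. Neurod1 ranged from 294 to 458 in the hippocampus (median 366) and reached 198 elsewhere, on a DBA/2J pituitary array. Tbr1 ranged from 129 to 233 in the hippocampus (median 168) and reached 61.2 elsewhere, on a C3H/HeJ bnst array. For these 6 probe sets no hippocampal array overlapped with any array of another region, and over all 16 probe sets this held for 11. Of all 44065 probe sets tested, 2.07% had every hippocampal array above every array of the other regions.

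**Figure D1:**
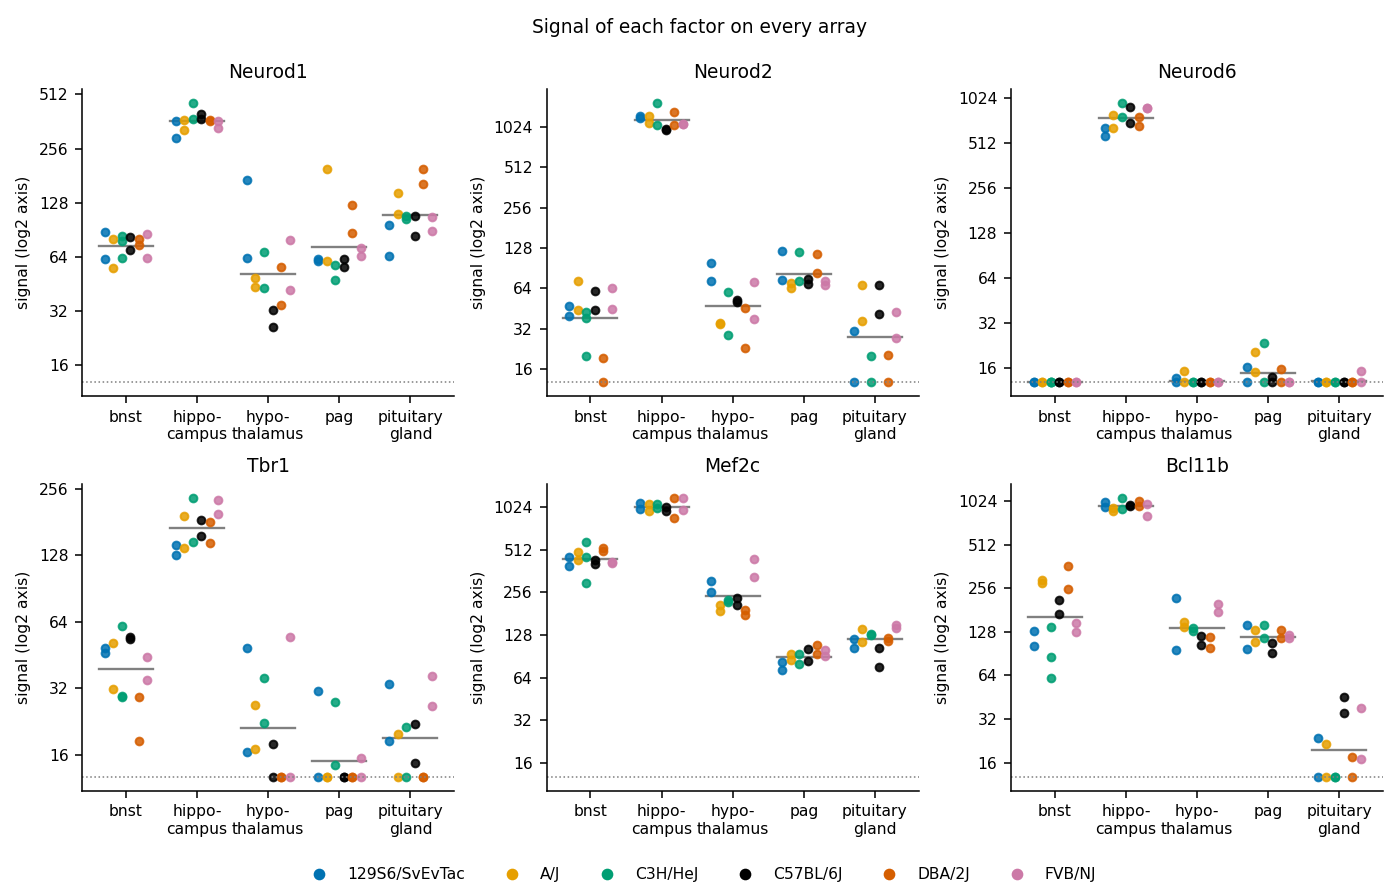
Signal of the 6 measured factors on every array, by region (x axis) and strain (colour), on a log2 axis. Each point is an array, the grey bar is the region mean of log2 signals, and the dotted line is the floor of 12.8, at which lower values are drawn. All 12 hippocampal arrays lie above the 49 others in each panel, and Neurod6 lies at or near the floor outside the hippocampus.

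Against the mean of the other 4 regions, all 6 factors were higher in the hippocampus in a limma fit over 44065 probe sets, where 19.1% of all probe sets were called higher at an adjusted p under 0.05 and 29.3% lower. With each array scaled to the same median these shares became 22.5% and 21.6%, and all 6 factors were still called higher. The log2 difference was 5.82 for Neurod6 (SE 0.0651, adjusted p = 1.02e-37) and 4.67 for Neurod2 (SE 0.136, adjusted p = 5.12e-26). It was 3.48 for Bcl11b (SE 0.107, adjusted p = 2.27e-25) and 2.94 for Tbr1 (SE 0.162, adjusted p = 7.29e-18). It was 2.49 for Mef2c (SE 0.0604, adjusted p = 2.39e-28) and 2.30 for Neurod1 (SE 0.121, adjusted p = 1.85e-18). Because signals under 12.8 were raised to 12.8, the difference is understated for a factor near the floor, above all Neurod6. Arrays set to the floor share the same value and show no spread, so the SE and adjusted p of Neurod6 overstate its precision. In whole tissue, more cells of a kind and more RNA per cell cannot be told apart.

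Of the 16 probe sets, 15 were called higher in the hippocampus. The exception was the third Neurod2 probe set, 1444362_at, whose region means of 3.35 to 9.57 were all below the floor. The second Neurod1 probe set, 1426413_at, overlapped between regions, with a lowest hippocampal signal of 135 and 160 on an A/J pag array. Likewise, 3 of the 5 Mef2c probe sets overlapped with bnst arrays.

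The factors differed in where else they were detected. Each was higher in the hippocampus than in each of the other 4 regions taken singly, which makes 24 of 24 comparisons. Of all probe sets, 15.5% were higher in the hippocampus than in the bnst, 15.6% than in the hypothalamus, 17.2% than in the pag and 23.5% than in the pituitary gland. The order of the remaining regions was not the same for all factors. Of all 60 comparisons between a pair of regions, 48 were called and 12 were not. Outside the hippocampus, the share of all probe sets called in either direction was 23.1% for the bnst against the hypothalamus and also against the pag, 26.2% for the hypothalamus against the pag, and 62%, 60.3% and 60.1% for the bnst, the hypothalamus and the pag against the pituitary gland. Against the mean of the other regions, 3 factors were lower in the bnst, 4 in the hypothalamus, 5 in the pag and 5 in the pituitary gland, while 2 were higher in the bnst and 0 in the other 3. Of all probe sets, the bnst had 16% called higher and 22.6% called lower, against 17% and 17% in the hypothalamus, 22.2% and 21.2% in the pag, and 40.6% and 25.4% in the pituitary gland.

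**Figure D2:**
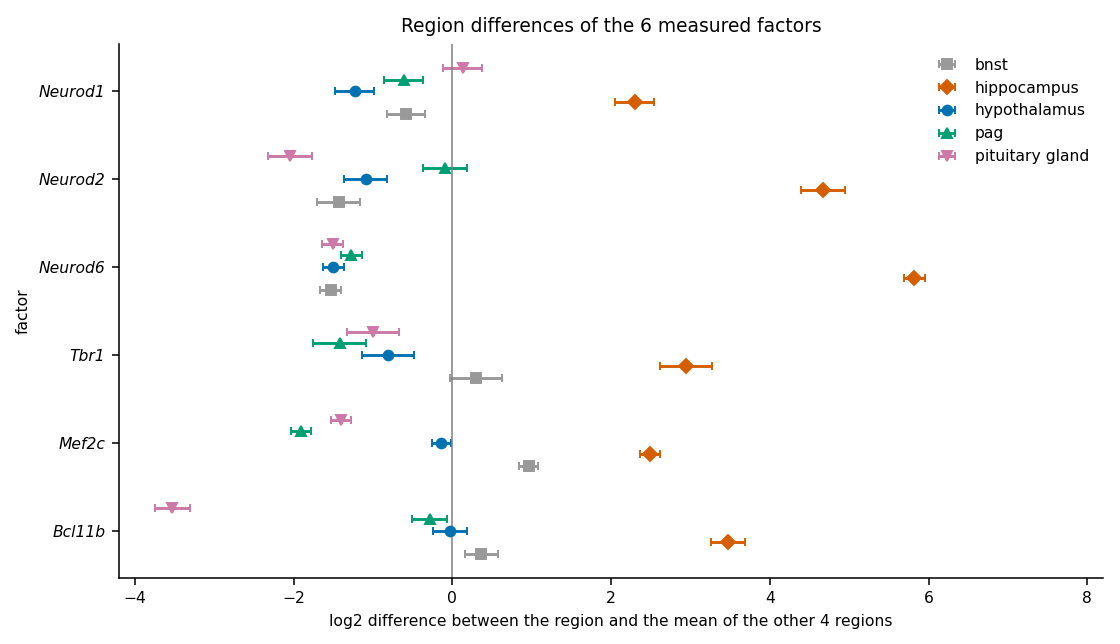
Log2 difference between each region and the mean of the other 4 regions for the 6 measured factors, with 95% confidence intervals from the limma fit. The hippocampus lies between 2.30 and 5.82 for every factor, while the bnst is above 0 for Mef2c and Bcl11b and the pituitary gland is lowest for Bcl11b at -3.53.

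Neurod6, which is expressed in postmitotic excitatory neurons of the pallium, was at or near the floor outside the hippocampus. Its mean signal was 5.86 ± 3.25 (SD, n = 13) in the bnst, 7.50 ± 4.23 (SD, n = 12) in the hypothalamus, 12.4 ± 6.15 (SD, n = 12) in the pag and 5.08 ± 4.09 (SD, n = 12) in the pituitary gland. All 13 bnst arrays, 10 of 12 hypothalamic arrays, 6 of 12 pag arrays and 11 of 12 pituitary arrays were at the floor. The pag exceeded the pituitary gland by 0.19 on the log2 scale (SE 0.0824), and this was called, but both regions were close to the floor.

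Neurod2 had a low signal outside the hippocampus, 83.7 ± 21.4 (SD, n = 12) in the pag, 50.9 ± 22 in the hypothalamus (n = 12), 42.1 ± 18.3 in the bnst (n = 13) and 31.1 ± 21.3 in the pituitary gland (n = 12). The pag was higher than each of the other 3, and the bnst and hypothalamus did not differ beyond their spread (log2 difference -0.27, SE 0.170, adjusted p = 0.303). A second probe set, 1418995_at, gave 852 ± 121 in the hippocampus and 6.99 to 27.0 as means elsewhere, so that the low pag signal did not recur there (13.7 ± 20.6, SD, n = 12).

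Neurod1 was the factor whose second region was the pituitary gland, with 114 ± 36.9 there (SD, n = 12). The pituitary arrays ran from 64.2 to 198, with the highest pair, 198 and 162, in DBA/2J. The pituitary gland exceeded the bnst by 0.58 (SE 0.151), the pag by 0.60 (SE 0.153) and the hypothalamus by 1.09 (SE 0.153), all called. The bnst, at 74.2 ± 10.4 (SD, n = 13), and the pag, at 79.0 ± 41.8 (SD, n = 12), did not differ beyond their spread (0.02, SE 0.151, adjusted p = 0.966). The hypothalamus was lowest at 58.8 ± 38.8 (SD, n = 12). Neurod4, a paralog expressed in the developing anterior pituitary, had 269 ± 65.4 in the pituitary gland (SD, n = 12), 157 to 419 on single arrays, and means of 10.2 to 19.5 in the other 4 regions.

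Mef2c was graded across the regions. Its mean signal fell from 1036 ± 95.1 in the hippocampus (SD, n = 12) to 447 ± 69.4 in the bnst (SD, n = 13), 249 ± 76.2 in the hypothalamus, 121 ± 20.4 in the pituitary gland and 90.7 ± 10.3 in the pag (SD, n = 12 each). All 10 pairs of regions were called different. Against the mean of the other regions the bnst was higher by 0.96 (SE 0.0591, adjusted p = 5.91e-16).

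Bcl11b followed the hippocampus with 182 ± 91.4 in the bnst (SD, n = 13), 141 ± 39.8 in the hypothalamus and 119 ± 16.4 in the pag (SD, n = 12 each), and was near the floor in the pituitary gland at 19.3 ± 14.4 (SD, n = 12). The bnst was above the pag by 0.52 (SE 0.133), but not beyond the spread above the hypothalamus (0.31, SE 0.133, adjusted p = 0.0918), and the hypothalamus was not distinguished from the pag (0.21, SE 0.135, adjusted p = 0.279). The bnst was called higher than the mean of the other regions (0.37, SE 0.105, adjusted p = 0.00479), and without the pituitary gland this turned into a lower value (-0.55, adjusted p = 2.9e-05), as it did on linear signals. It was not called by probe sets 1450339_a_at (0.22), 1452966_at (0.02) and 1438784_at (-0.008), with adjusted p of 0.102 to 0.976. The bnst was also not called above the pag by 1452966_at (adjusted p = 0.246) or 1438784_at (adjusted p = 0.14).

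Tbr1 followed with 41.1 ± 12.9 in the bnst (SD, n = 13), which was higher than the hypothalamus by 0.89, the pituitary gland by 1.04 and the pag by 1.38 (SE 0.202 each, all called). Its means in the hypothalamus (23 ± 16), the pituitary gland (18.5 ± 10.5) and the pag (13.2 ± 8.22) were not distinguished from each other (n = 12 each), with adjusted p of 0.0791 to 0.555. Tbr1 was at the floor on 4, 4 and 8 of the 12 arrays of these regions.

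Markers of the regions were as labelled in part. All 12 measured genes of a hippocampal excitatory neuron list rose in the hippocampus, among them Slc17a7, the vesicular glutamate transporter, with 1670 ± 418 there (SD, n = 12) against 202 ± 108 in the bnst (n = 13). All 9 measured pituitary genes were higher in the pituitary gland and lower in the hippocampus, and 4 of 4 hypothalamic neuropeptide genes were higher in the hypothalamus, 4 of 4 periaqueductal and raphe genes were higher in the pag, and all of these were lower in the hippocampus. In the bnst, 7 of 7 thalamic neuron genes, 4 of 4 hypothalamic neuropeptide genes, 3 of 3 choroid plexus genes and 5 of 7 striatal medium spiny neuron genes were higher than the mean of the other regions, so bnst arrays carried markers of neighbouring structures. Subpallial and GABAergic genes were 11 of 12 higher in the bnst and also in the hypothalamus. Hippocampal excitatory neuron genes were 6 higher and 3 lower of 12 in the bnst. Of all probe sets, 16% were called higher in the bnst and 22.6% lower. Striatal genes were also 4 of 7 higher in the pituitary gland, and choroid plexus genes 2 of 3, where 40.6% of all probe sets were higher. In the hippocampus 5 of 5 microglia genes, 4 of 4 astrocyte genes and 3 of 3 oligodendrocyte genes rose, with medians of 0.73, 1.05 and 1.43 on the log2 scale, with endothelial genes at 2 higher and 1 lower of 5, choroid plexus genes at 1 higher and 1 lower of 3, striatal genes at 3 higher and 3 lower of 7 and thalamic genes at 2 higher and 5 lower of 7. Of all probe sets, 19.1% were called higher in the hippocampus and 29.3% lower. The glial lists were also higher in other brain regions and low in the pituitary gland. Oligodendrocyte genes were 3 of 3 higher in the bnst (1.40) and the pag (1.48). Microglia genes were 5 of 5 higher in the bnst (0.58) and astrocyte genes 4 of 4 higher in the hypothalamus (1.14). The medians of oligodendrocyte, microglia and astrocyte genes in the pituitary gland were -5.69, -1.48 and -3.10. The part of these genes in the values of the factors was not tested.

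The genes that work with these factors moved less uniformly. In the hippocampus, 19.1% of all probe sets were called higher and 29.3% lower. Of 12 measured pallial transcription factors, 10 rose in the hippocampus and 1 fell, with a median log2 difference of 1.58, against -0.07 over all probe sets tested and 3.21 over the 6 factors. The LIM homeobox gene Lhx2 had 580 ± 35.4 in the hippocampus (SD, n = 12) and means of 29.0 to 101 elsewhere, a log2 difference of 3.40 (SE 0.127). Bcl11a, the paralog of Bcl11b, rose by 2.68 (SE 0.0780), the zinc finger gene Zbtb18 by 2.51 (SE 0.0415), and the homeobox genes Emx2 and Emx1 by 2.42 (SE 0.0676) and 2.01 (SE 0.151). Eomes, the T-box paralog of Tbr1 found in intermediate progenitors, was lower (-0.40, SE 0.124, adjusted p = 0.00616).

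Of 6 neocortical layer factors, 2 rose and 3 fell, where 19.1% of all probe sets were called higher in the hippocampus and 29.3% lower. The riser with the larger difference was Fezf2, at 271 ± 37.6 in the hippocampus (SD, n = 12) and below 12 as a mean in every other region (4.30, SE 0.0829), whereas Foxp2 fell by 3.18 (SE 0.0819). Of 8 NeuroD-related bHLH factors none rose and 3 fell, Neurod4, Neurog2 and Nhlh2. The other regions include the pituitary gland, where the Neurod4 signal was highest. The summed signal of the 8 genes was 96.15 to 225.7 on hippocampal arrays, so their levels there were low. Among the 3 E proteins, the partners of NeuroD factors, Tcf4 rose by 1.82 (SE 0.0397), from means of 539 to 797 in the other regions to 2171 ± 131 (SD, n = 12), while Tcf3 and Tcf12 fell by 0.13 and 0.19. Of the 4 Id genes, whose products sequester E proteins, Id1, Id2 and Id3 rose by 0.28 to 1.02 and Id4 fell by 0.11. A fall of this size did not stand apart from the median shift of -0.07 over all probe sets. The Id list also had 3 of 4 higher in the bnst, 3 of 4 in the pag and 2 of 4 in the hypothalamus. Of all probe sets, 16%, 22.2% and 17% were called higher there. In the pituitary gland 4 of 4 Id genes were lower (25.4% of all probe sets).

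Among 9 MEF2 paralogs and regulators, 7 rose, Hdac7 fell by 0.31 and Mef2b was not called (-0.18). Mef2a rose by 0.79 (SE 0.0424) and Mef2d by 0.73 (SE 0.0333), both less than Mef2c, and Hdac9, a class II deacetylase that binds MEF2, rose by 1.2 (SE 0.130). Of 6 genes known as activity-dependent MEF2 targets, 5 rose, with Arc, an immediate early gene of synapses, at 3.43 (SE 0.157) and Homer1, a postsynaptic scaffold gene, at 1.89 (SE 0.0618), and Klf6 fell by 0.49. Arc differed widely between hippocampal arrays, 399 ± 190 (SD, n = 12). Of 5 TBR1 target genes, Grin2b (1.36, SE 0.103), Reln (1.36, SE 0.0794) and Auts2 (0.78, SE 0.0380) rose, Cntnap2 fell by 0.38 (SE 0.0640) and Cask was not called (-0.09). Subpallial and GABAergic genes were split, with 4 higher and 5 lower of 12, a median of 0.05. Over all probe sets the shares were 19.1% higher and 29.3% lower. The TBR1 target list was not higher in the hippocampus alone. It had 5 of 5 higher in the bnst and 3 of 5 in both the hypothalamus and the pag. Of all probe sets, 16%, 17% and 22.2% were called higher in these regions. In the pituitary gland 4 of 5 were lower (25.4% of all probe sets), with a median of -1.58.

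**Figure D3:**
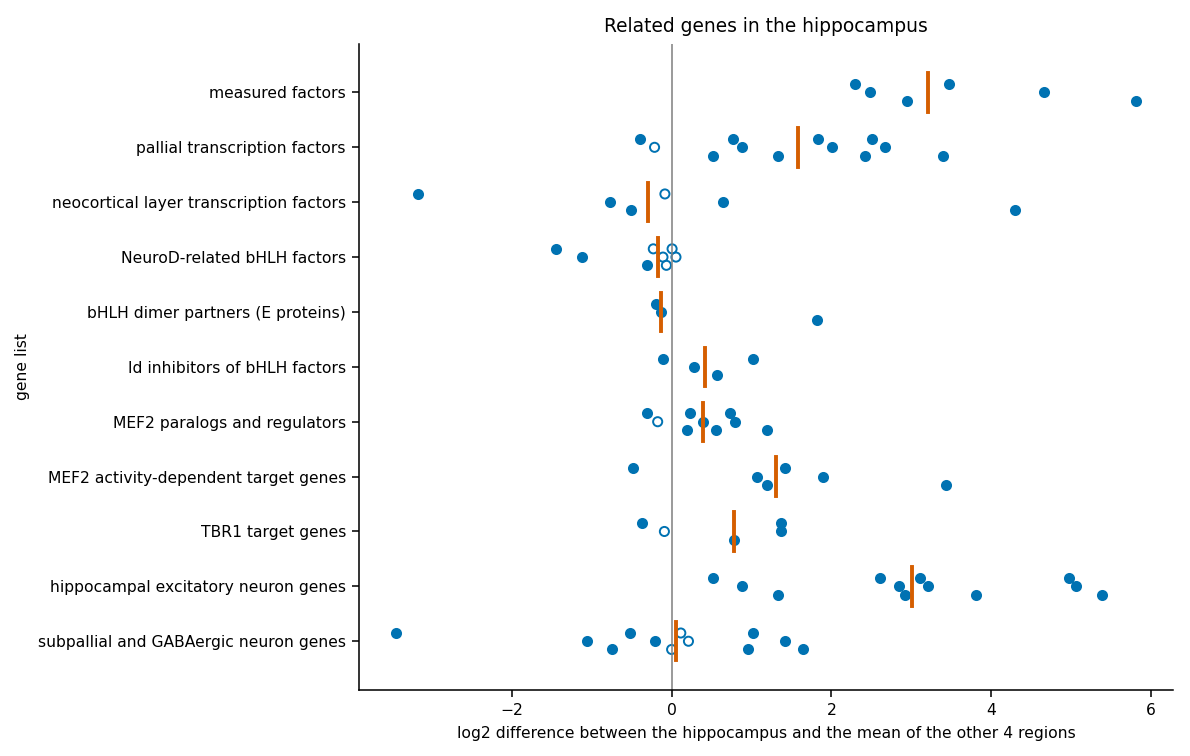
Log2 difference between the hippocampus and the mean of the other 4 regions for each measured gene of 11 gene lists. Filled points passed an adjusted p of 0.05, open points did not, and orange bars are list medians, which reach 3.21 for the measured factors, 3.01 for hippocampal excitatory neuron genes and 1.58 for pallial transcription factors.

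Across the 30 strain and region means of log2 signal, the genes whose pattern lay closest to each factor were described by Pearson's r, with no test, since the values share arrays and are dominated by region. For Neurod6 they were Vipr1 and Psrc1 (0.995 each) and Fezf2 (0.993). For Neurod2 they were Prdm8 (0.961), Dkk3 (0.956) and Jph1 (0.952), for Neurod1 Nrip1 (0.941), Itga8 (0.932) and Dyrk2 (0.931), and for Tbr1 Rin1 and 3110039M20Rik (0.948 each) and Khdrbs3 (0.941). For Mef2c they were Icam5 (0.969), Septin11 and Syne1 (0.968 each), and for Bcl11b Neto1 (0.983), Synpo (0.979) and Gpm6b (0.973). Between factors, r was highest for Neurod2 and Neurod6 (0.941) and lowest for Neurod1 and Bcl11b (0.505).

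Within the hippocampus, no strain difference was called in any of the 6 factors by the representative probe set. The strain F test of limma made 0 calls among the 6, where it called 10.6% of all probe sets, and 0 of 6 had an unadjusted p under 0.05. The strain means of Mef2c lay between 991 and 1085, those of Bcl11b between 895 and 994, those of Neurod1 between 328 and 415, and those of Neurod2 between 978 and 1302. As a ratio of the highest to the lowest strain mean, the range was 1.57 for Tbr1, from 136 in 129S6/SvEvTac to 212 in FVB/NJ, 1.44 for Neurod6, from 610 to 877 in the same strains, and 1.09 to 1.33 for the other 4.

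The design leaves room for moderate differences. There were 36 comparisons of a strain with the mean of the other strains in the hippocampus. Over the strains, the lowest and highest limits of the 95% intervals were -0.37 and 0.37 for Mef2c but -1.18 and 1.18 for Tbr1. The interval excluded 0 in 1 comparison, Neurod6 in 129S6/SvEvTac (-0.37, interval -0.69 to -0.05, adjusted p = 0.193, where 3.68% of all probe sets were called lower). A regression on linear signals called 3 factors in the hippocampus, Neurod2 (adjusted p = 0.0324), Neurod6 (adjusted p = 0.000135) and Tbr1 (adjusted p = 0.0458), and raising the floor to the 30th percentile called Neurod6 (adjusted p = 0.012).

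Other probe sets of Bcl11b and Mef2c did differ between strains. The Bcl11b probe set 1450339_a_at gave 331 and 354 on the hippocampal arrays of DBA/2J and 965 to 1302 on those of the other 5 strains, which do not overlap. The log2 difference of DBA/2J from the other strains was -1.74 in the hippocampus (SE 0.254, adjusted p = 1.26e-05), where 1.35% of all probe sets were called lower in DBA/2J. It was -1.54 in the hypothalamus, -1.45 in the pag and -1.25 in the bnst (adjusted p of 0.000103 to 0.00143), where 1.34%, 1.8% and 3.47% were called lower. On the same hippocampal arrays probe set 1435227_at gave 1024 and 955 in DBA/2J, within the range of the other strains, and probe sets 1452966_at and 1438784_at had no strain call in the hippocampus either.

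The Mef2c probe set 1421028_a_at gave 150 and 191 in the 129S6/SvEvTac hippocampus and 182 and 232 in A/J, against 335 to 618 in the other 4 strains. The strain F test within the hippocampus passed (adjusted p = 0.0059), and 129S6/SvEvTac was lower by 1.28 on the log2 scale (SE 0.319, adjusted p = 0.00991), but without replicate 1 of 129S6/SvEvTac in the hippocampus the F test missed the threshold (adjusted p = 0.0543). The contrast of 129S6/SvEvTac was lost without either of its arrays (-1.10 and -1.45). Over all regions A/J was lower by 0.73 and 129S6/SvEvTac by 0.68 (SE 0.143 each), where 7.36% and 8.8% of all probe sets were called lower. Probe set 1451506_at ran from 280 in A/J to 721 in C57BL/6J as hippocampal means, with a strain F test that passed over all regions (adjusted p = 2.84e-05) and not within the hippocampus (adjusted p = 0.613). The main Mef2c probe set, 1424852_at, gave hippocampal strain means from 991 in C57BL/6J to 1085 in FVB/NJ. Whether the 25-base probes of these sets match the sequence of every strain was not tested.

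**Figure D4:**
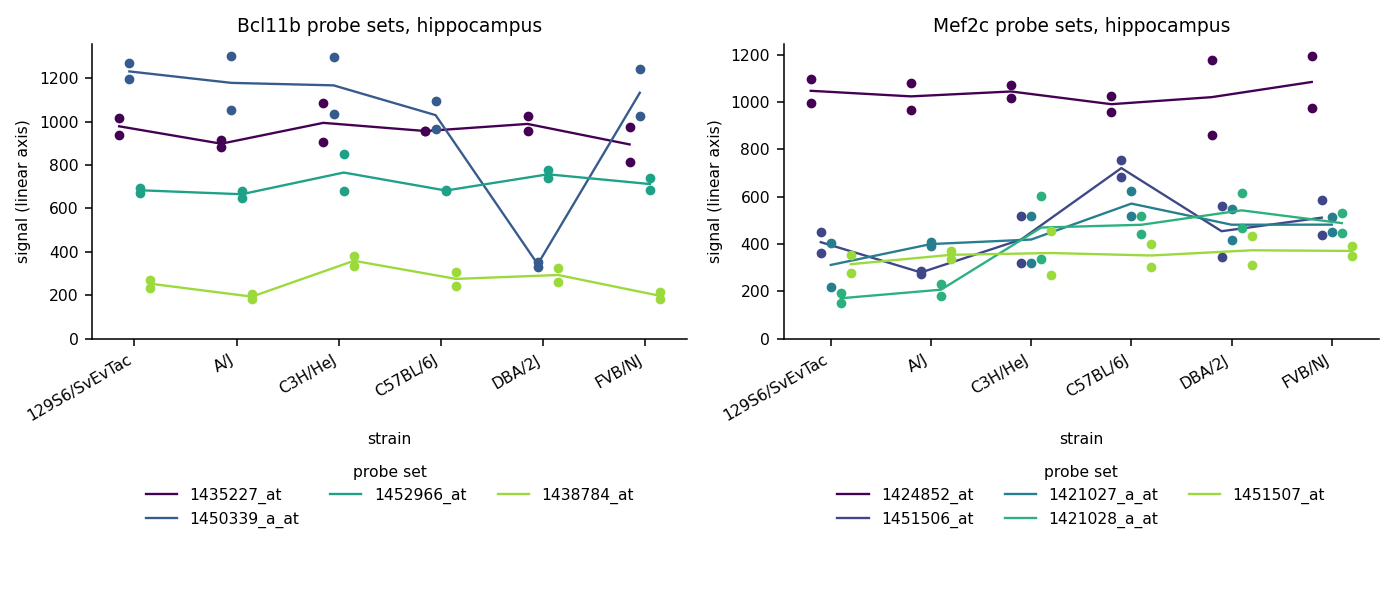
Signal of each Bcl11b and Mef2c probe set on the hippocampal arrays by strain, on a linear axis from 0, with points for arrays and lines joining strain means only to guide the eye. Of the Bcl11b probe sets, 1450339_a_at alone drops in DBA/2J (mean 343 against 1030 to 1231), and of the Mef2c probe sets, 1421028_a_at is low in 129S6/SvEvTac (171) and A/J (207).

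Outside the hippocampus the strains differed for some factors. Over all regions the strain F test called Neurod2 (adjusted p = 0.0177) and Mef2c (adjusted p = 0.0373), 2 of 6, where it called 39.2% of all probe sets. The interaction of strain and region was called for Bcl11b (adjusted p = 0.00521) and Neurod2 (adjusted p = 0.0239), 2 of 6 against 11.3% of all. The Neurod2 strain call was lost without replicate 2 of DBA/2J in the bnst (adjusted p = 0.0539), the hypothalamus (0.0631) or the pituitary gland (0.0553), and the Mef2c strain call without any of 12 arrays (adjusted p of 0.0562 to 0.132), 7 of FVB/NJ and 5 of C57BL/6J. The Neurod2 interaction was lost without replicate 2 of DBA/2J in the bnst (adjusted p = 0.0519).

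In the bnst, Bcl11b gave 365 and 254 in DBA/2J and 292 and 279 in A/J, 171 and 213 in C57BL/6J, 128 and 147 in FVB/NJ, and 129 and 102 in 129S6/SvEvTac. The 3 C3H/HeJ arrays gave 139, 61 and 85.9. DBA/2J and A/J thus lay above all other strains without overlap. The strain F test in the bnst had an adjusted p of 9.21e-05 (19.3% of all probe sets were called), with DBA/2J higher by 1.02 (SE 0.255), A/J higher by 0.90 (SE 0.255) and C3H/HeJ lower by 1.09 (SE 0.218), where 2.29%, 3.92% and 1.73% of all probe sets were called in these directions. The F test passed without any single array (adjusted p of 1.53e-05 to 0.000895), but each of these strain contrasts lost its call without an array of its own strain. These arrays were replicate 1 of DBA/2J (0.75), either replicate of A/J (0.87 and 0.94) and replicate 2 of C3H/HeJ (-0.81). With the floor at the 10th percentile the DBA/2J (adjusted p = 0.0793) and A/J (adjusted p = 0.129) contrasts were not called either.

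Striatal genes also differed between the bnst arrays. Ppp1r1b, a signalling gene of striatal medium spiny neurons, gave 678 and 498 in DBA/2J and 512 and 453 in A/J, and 42.9 to 420 in the other strains. Drd1, a dopamine receptor of these neurons, gave 300 and 185 in DBA/2J, 204 and 163 in A/J, 152 and 217 in C57BL/6J and 58.8 to 147 in the other 3 strains. The summed signal of the 7 measured striatal genes was 3211 and 2466 in DBA/2J, 2742 and 2570 in A/J, 2248 and 2519 in C57BL/6J and 1394 to 2342 in the other 3 strains, with no gene at the floor. Their part in the Bcl11b differences was not tested. By probe set 1450339_a_at Bcl11b was highest in A/J, at 293 and 225, and gave 78.4 and 46.0 in DBA/2J.

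**Figure D5:**
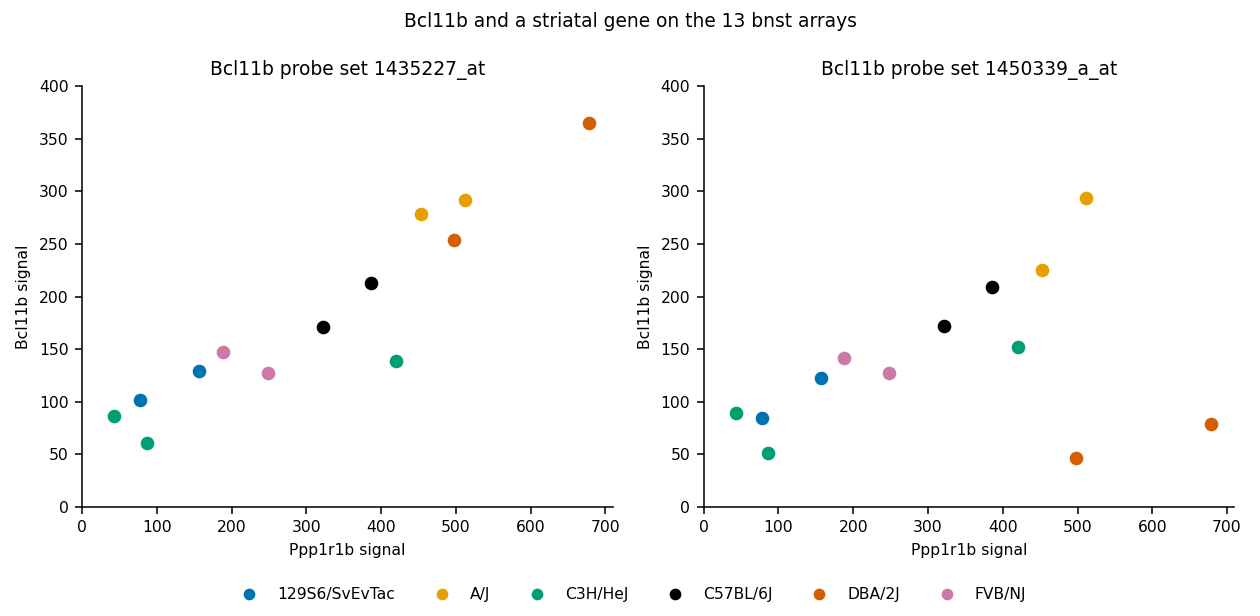
Bcl11b signal against Ppp1r1b signal on the 13 bnst arrays, linear axes from 0, for probe sets 1435227_at (left) and 1450339_a_at (right), coloured by strain. At left the array with the highest Ppp1r1b signal (678) has the highest Bcl11b signal (365), and at right the DBA/2J arrays lie apart at 78.4 and 46.0.

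Neurod2 was low in the DBA/2J bnst, with 19.3 and 8.34 against 19.95 to 72.5 elsewhere. DBA/2J was lower by 1.57 on the log2 scale (SE 0.325, adjusted p = 0.00188). Without replicate 2 of DBA/2J in the bnst the difference was -1.27 and was not called (adjusted p = 0.193), and the second probe set, 1418995_at, pointed the other way (1.03, adjusted p = 0.142). Signals in this range are close to the floor. Over all regions DBA/2J was lower for Neurod2 by 0.56 (SE 0.146, adjusted p = 0.00751) and for Tbr1 by 0.56 (SE 0.174, adjusted p = 0.0254), where 7.5% of all probe sets were called lower. By its second probe set the Neurod2 difference was -0.17 (adjusted p = 0.58). A regression on linear signals called neither the Neurod2 (adjusted p = 0.938) nor the Tbr1 contrast (adjusted p = 0.145). The strain F test over all regions did not pass for Tbr1 (adjusted p = 0.0603). The DBA/2J contrast of Tbr1 lost its call without any of 6 DBA/2J arrays (replicate 1 of the bnst, replicate 2 of the hippocampus, hypothalamus and pag, and both of the pituitary gland).

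In the hypothalamus, Neurod1 was higher in 129S6/SvEvTac by 1.22 (SE 0.290, adjusted p = 0.00659). Its arrays gave 172 and 63.0, against 25.9 to 79.0 in the other strains, so that the difference came from replicate 1, and without it the value was 0.49 (adjusted p = 0.346). That array also had the highest signals among hypothalamic arrays of Gabra6 (202, against 6.01 to 32.6), Pcp2 (157, against 32.6 to 70.2) and Cbln3 (59.2, against 5.43 to 22.2), which mark cerebellar granule and Purkinje cells. Over a list of 5 cerebellar genes the summed signal was 1747 on this array and 937.5 to 1285 on the other 11. Calls close to the threshold were made in the hypothalamus for Neurod1 in C57BL/6J (-0.9988, adjusted p = 0.0496) and for Neurod2 in 129S6/SvEvTac (1.03, adjusted p = 0.0467), and these were lost on omission of any of 55 and 27 of the 61 arrays. The background was 4.09% higher in 129S6/SvEvTac and 1.11% lower in C57BL/6J. In the pag, A/J replicate 2 had a Neurod1 signal of 196 against 47.6 to 124 on the other 11 pag arrays, with Gabra6 at 17.5, within the pag range. The part of cerebellar tissue was not tested.

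Mef2c was higher in the FVB/NJ hypothalamus by 0.80 (SE 0.145, adjusted p = 0.00053), where 0.989% of all probe sets were called higher. The arrays gave 328 and 442, against 177 to 308 in the other strains, with no overlap. Replicate 2 of FVB/NJ also had the highest Slc17a7 signal of the hypothalamic arrays, 240 against 9.99 to 32.2, and the highest summed signal of hippocampal excitatory neuron genes, 4133 against 2419 to 3581. Neurod6 was at the floor on that array. Without it the Mef2c difference was 0.58 and was not called (adjusted p = 0.166). In the pituitary gland, strain calls were made for Neurod2 and Bcl11b at signals of at most 67.5, and for Mef2c, where the C57BL/6J arrays were lower (-0.50, SE 0.145), a call that was lost without replicate 1 of C57BL/6J (-0.28, adjusted p = 0.45). Without the same array the C57BL/6J contrasts of Neurod2 (0.77, adjusted p = 0.351) and Bcl11b (1.06, adjusted p = 0.0636) lost their calls too, and the second Bcl11b probe set gave 0.36 (adjusted p = 0.354). Of all probe sets 8.93% were higher and 6.86% lower in the C57BL/6J pituitary gland.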

How the data were processed

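RNA of 61 tissue samples was hybridised to Affymetrix GeneChip mouse arrays. The authors processed the scans in the TeraGenomics system and deposited a linear signal intensity per probe set, already background-corrected, so that 5.36% of values are below 0. The scaling target and version are not given in the sources used here. After 64 control probe sets were removed, 45037 remained, 34945 annotated to 1 gene, 932 to several and 9160 to none. No array was identical to another, replicates correlated at 0.937 to 0.9877 (log2), and array medians ran from 42.6 to 67.1. The 129S6/SvEvTac hypothalamus pair was lowest.

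Signals under the 20th percentile, 12.8, were set to it, and 972 probe sets at the floor on every array were left out. limma 3.58.1 (R 4.3.3) fitted 30 strain and region means by lmFit and eBayes with a trend (31 residual degrees of freedom), with Benjamini-Hochberg adjustment over 44065 probe sets and a threshold of 0.05. The study itself used a two-factor regression on linear signals, run here as an alternative. The fit was checked on simulated data. The number of arrays limits the precision.

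The factors and 20 gene lists (138 genes, 128 measured) were chosen with earlier results of these data known, and the cerebellar list after its values were seen. Named genes were the factors, list members (1 probe set each, that of highest mean) and, per factor, the 3 genes with the highest r over the 30 group means. Alternatives were other floors, normalizations, filters, probe sets, linear signals, a replicate block, omission of the pituitary gland and of each array.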

Additional observations from a re-analysis of the deposited data

Results flagged for a closer look

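The effect of strain differed between the regions, by the test of the interaction in limma, for Neurod2 (1435411_at, adjusted p = 0.0239) and for Bcl11b by 2 probe sets, 1435227_at (adjusted p = 0.00521) and 1450339_a_at (adjusted p = 0.00734). It was not called by the Bcl11b probe sets 1452966_at (adjusted p = 0.0666) and 1438784_at (adjusted p = 0.249). The interaction of 1450339_a_at was not called with the floor at the 10th percentile (adjusted p = 0.195) or without the pituitary gland (adjusted p = 0.108). That of Neurod2 was not called with the floor at the 10th percentile (adjusted p = 0.0521), with the second probe set (0.0703), without the pituitary gland (0.114) or on linear signals (0.588). For Neurod2, DBA/2J was below the other strains in the bnst (-1.57) and not distinguished from them in the hippocampus (0.05). For Bcl11b by 1435227_at, DBA/2J was above the other strains in the bnst (1.02) and not distinguished from them in the hippocampus (0.07). By 1450339_a_at, DBA/2J was lower in both (-1.25 and -1.74), and all but 3 of the 12 pituitary arrays were at the floor.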

How the results depend on the processing

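All 6 measured factors were higher in the hippocampus under each of the 9 alternatives and without any single array. So were 10 of 12 pallial transcription factors and 12 of 12 hippocampal excitatory neuron genes, but the use of second probe sets could not change these list counts. That setting replaced the probe sets of the factors alone, and Neurod6 and Tbr1, with 1 each, kept theirs. Of 80 settings of the counts, 66 stayed within 1.5 times the value given and 14 did not, and of 474 settings of single values 401 kept direction and call, 68 lost the call and 5 reversed. Strain results and results on the other regions changed and the cause was not tested.

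The count of factors higher in another region (2) became 1 on linear signals, with the second probe sets and without the pituitary gland. Pairs of regions called different numbered 48 in the main fit and 29 without the pituitary gland, where fewer pairs were compared. Strain calls over all regions (2) became 1 with the floor at the 30th percentile and 0 on linear signals and without the pituitary gland. Strain calls in the hippocampus (0) became 1 with the floor at the 30th percentile or the second probe sets and 3 on linear signals. Interaction calls (2) became 1 with the floor at the 10th percentile, on linear signals, with the second probe sets and without the pituitary gland. The Bcl11b difference of the bnst reversed to -118.6 on linear signals and to -0.5509 without the pituitary gland. With the second probe set, the DBA/2J differences in the bnst reversed for Neurod2 (1.031) and Bcl11b (-1.248), and that of FVB/NJ over all regions reversed for Mef2c (-0.008211). Over all probe sets, interaction calls numbered 4990, 1057 without the pituitary gland and 8451 without replicate 1 of the 129S6/SvEvTac hypothalamus.

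On omission of single arrays, the counts ranged over 6 to 6 for the hippocampus, 2 to 2 for other regions, 46 to 50 for pairs of regions, 1 to 3 for strains, 0 to 0 for strains in the hippocampus and 1 to 3 for the interaction. A group left with 1 array was assumed to vary like the others.

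Replicate numbers were not taken to pair the samples, since the labels do not say that a number marks a shared animal or batch. The differences between replicates of groups of 1 strain correlated at a median of 0.0123 (-0.327 to 0.412). For groups of different strains the median was -0.00715 (-0.416 to 0.362). These medians cannot exclude shared animals or batches for some regions. With the replicate number as a block, 6 factors stayed higher in the hippocampus, 2 were called for strain and 3 for the interaction, Mef2c being added, and the C57BL/6J difference of Neurod1 in the hypothalamus was lost (-0.9988, adjusted p = 0.0573).

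Without 3 arrays with markers of other tissue or a high Neurod1 signal (replicate 1 of the 129S6/SvEvTac hypothalamus, replicate 2 of the FVB/NJ hypothalamus and replicate 2 of the A/J pag, chosen after seeing the data), 6 factors were higher in the hippocampus, 3 were called for strain (Neurod1, Neurod2 and Tbr1) and 2 for the interaction, and interaction calls over all probe sets rose to 7952.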
